A study of Mus musculus with 2 samples.

Results

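Among the splice junctions read in mouse fetal liver, 2521 joined exon ends that the ENSEMBL 65 annotation knows but never pairs in a transcript. They were taken from a list of 1077149 junction records on the mouse build mm9. A record was kept if the list marks it as unannotated and carries its second marker, whose meaning is not given in the sources used here. It also needed at least 10 reads in each of 2 libraries and both ends directly beside annotated exon ends of 1 strand. Of 11538 unannotated records with that marker and that many reads, 2521 met the rule, 6236 touched an exon end on 1 side and 2781 on neither. None of the 2521 is an intron of an ENSEMBL 65 transcript, whereas all 176210 junctions marked as annotated are. The latter are called listed junctions here, and 127268 of them also had at least 10 reads in each library. The members were chosen by their read counts in these libraries, so their levels are given as a description and no test was made.

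The libraries are replicates 1 and 2 of 1 group, liver of C57BL/6J embryos of day 18 with littermates of both sexes mixed, sequenced as poly(A)+ RNA. No treatment, mutant or second age was measured, and the bulk tissue holds several cell types, so fewer cells of a type and less RNA per cell cannot be told apart. Listed junctions held 115648845 reads in replicate 1 and 97421734 in replicate 2. All 8 hepatocyte and all 6 erythroid marker genes reached 1 TPM (a transcript abundance scaled by length and depth) in both libraries. Summed markers of pancreas acinar cells were at 51.0 TPM in replicate 1 and 0.740 in replicate 2, and those of neutrophils at 8781 and 12691 TPM. The part of these differences in the junction values was not tested.

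Splicing removes introns by joining the 5′ splice site at the end of one exon to the 3′ splice site at the start of a later one. When a site is joined to a more distant partner, the exons between are skipped. In protein-coding sequence, leaving out an exon whose length is a multiple of 3 keeps the reading frame. Genes that arose by tandem duplication can carry nearly the same exon sequence side by side, so a spliced read may match more than one pairing of their exons. Fetal liver makes red cells and plasma proteins at once, and the globins, the serpins and the cytochromes P450 are all such families.

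The members fell into 2 classes of similar size and very different depth. Both exon ends lay in 1 gene for 1341 members (53.2%, in 1106 genes), and in different genes for 1180 (46.8%, in 554 genes). Those between genes held 7471287 and 5768606 reads in replicates 1 and 2, which was 5.95% and 5.48% of all junction reads. Whether a read was counted at several positions is not given in the sources used here, so these sums may hold a read more than once. Members within 1 gene held 74915 and 64976 reads, or 0.0596% and 0.0617%. Their median mean count was 23.0 reads against 65 for members between genes and 116 for listed junctions. The median distance spanned was 4256 bases within 1 gene, 80758 between genes and 1253 for listed junctions. At the read minimum, 175 members had 10 reads in their lower library and 175 junctions that otherwise met the rule had 9. A member of Bag2 at 19 and 10 reads and one of Mrpl30 at 10 and 12 were just inside, and junctions of Aox3 at 9 and 15 and of Cyp27a1 at 12 and 9 just outside.

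**Figure D1:**
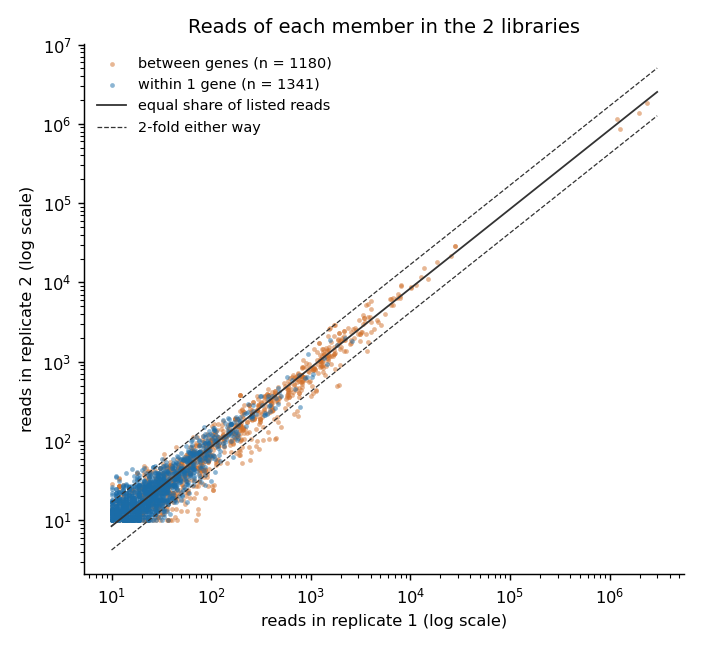
Reads of each member in replicate 1 (x axis) and replicate 2 (y axis), both on log scales, coloured by class. The solid line marks equal shares of the listed reads and the dashed lines 2-fold either way; 4 globin members stand far above the rest, and 188 members lie beyond 2-fold.

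Sequence was set beside the counts to show what the members between genes look like. For each junction the last 15 bases of the upstream exon and the first 15 of the downstream exon were joined into a 30-base window, read from GENCODE M21 transcripts whose exon structure matched the mm9 one. Of 906 members between genes with sequence, 847 (93.5%) had a window identical to that of a listed junction, against 17 of 1195 (1.42%) within 1 gene. With windows of 100 bases the counts were 518 of 891 (58.1%) and 8 of 1175 (0.681%). The windows below show the case with the most reads over the beta globins. Lower case is the upstream exon and capitals the downstream exon, 5′ to 3′. The first line is at once the member from Hbb-bs to Hbb-bt (minus strand, chr7:110961299-110975961), the listed Hbb-bs junction (chr7:110975308-110975961) and the listed Hbb-bt junction (chr7:110961299-110961952). The second is the member from the embryonic gene Hbb-bh1 to Hbb-bs (chr7:110975308-110991204), and the third the listed Hbb-bh1 junction (chr7:110990395-110991204).
Hbb-bs to Hbb-bt, Hbb-bs and Hbb-bt: cctgagaacttcaggCTCCTGGGCAATATG
Hbb-bh1 to Hbb-bs: cctgagaacttcaagCTCCTGGGCAATATG
Hbb-bh1: cctgagaacttcaagCTCCTGGGCAACATG
The Hbb-bh1 to Hbb-bs window differs at 1 base from each listed window.

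The globin genes, which encode the chains of haemoglobin, held most of the reads between genes: 19 members made up 91.6% of them in replicate 1 and 90.5% in replicate 2. The member with most reads joined Hba-a1 to Hba-a2, the tandem copies of the adult alpha chain (chr11:32184129-32197079), at 2376197 and 1809616 reads. The listed junction into the same 3′ splice site, inside Hba-a2, had 2376491 and 1810441 reads, so the counts were almost equal in each library. A second Hba-a1 to Hba-a2 member, at the preceding intron (chr11:32183802-32196740), had 1173827 and 1136275 reads. The beta chain genes gave the same picture. The Hbb-bs to Hbb-bt member shown above had 1993630 and 1381140 reads, and the listed Hbb-bt junction had 1995821 and 1384178. The member at the preceding intron (chr7:110962176-110976297) had 1258767 and 860726 reads. A member's share is the mean of its part of all list reads at its 5′ site and at its 3′ site. These 4 members had shares from 46.4% to 49.9% in the 2 libraries.

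Embryonic globin genes were also joined to the adult ones. Hba-x, the embryonic alpha-like gene, was joined to Hba-a1 with 1972 and 898 reads and to Hba-a2 with 1770 and 819. Listed junctions from that Hba-x site had at most 84 and 88 reads, fewer than either member. Hbb-bh1 was joined to Hbb-bs with 991 and 573 reads and to Hbb-bt with 793 and 441, where its own listed junction had 48 and 48. Hbb-y, the other early beta-like gene, was joined to Hbb-bs with 129 and 158 reads and to Hbb-bt with 106 and 135, against 199 and 200 for its listed junction. Hbb-bh3, a further beta-like copy in the cluster with no sequence matched, was joined to Hbb-bs with 25543 and 21248 reads. These members had windows with 1 to 3 mismatches to a listed window where sequence was matched, and the listed adult junctions at their 3′ sites had from 1384178 to 2647389 reads in a library.

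The members between genes linked 197 clusters of genes, the alpha and beta globins included, and 129 of them were pairs. The 13 clusters with at least 20 members held 467 members. The Serpina1 genes, copies of the protease inhibitor alpha-1 antitrypsin that the liver secretes, and Gm8893 were joined by 56 members with 225126 and 231851 reads. Serpina1c to Serpina1b (chr12:104970803-105143068) had 28267 and 29139 reads, and Serpina1a to Serpina1b (chr12:104970803-105101731) had 28264 and 29131. The listed Serpina1b junction into their shared 3′ site had 28491 and 29256, within 1% of either member. Serpina1c to Serpina1a followed with 18702 and 17941 reads and Serpina1a to the related Gm8893 with 13758 and 15357. The cytochrome P450 families gave 53 members in Cyp3a, 45 in Cyp4a, 43 in Cyp2c and 30 in Cyp2d. Complement C4a and C4b were joined by 32 members and the class I histocompatibility genes H2-D1 and H2-Q by 32. Tuba1a to Tuba1b, which encode alpha tubulins, had 14962 and 11038 reads. In all, 255 of 1180 members between genes (21.6%) had counts within 5% of those of a listed junction at one of their ends in both libraries, against 5 of 1341 within 1 gene (0.373%). In such families the deposited counts do not show which copy a read came from, and whether a read was counted at several positions is not given in the sources used here.

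**Figure D2:**
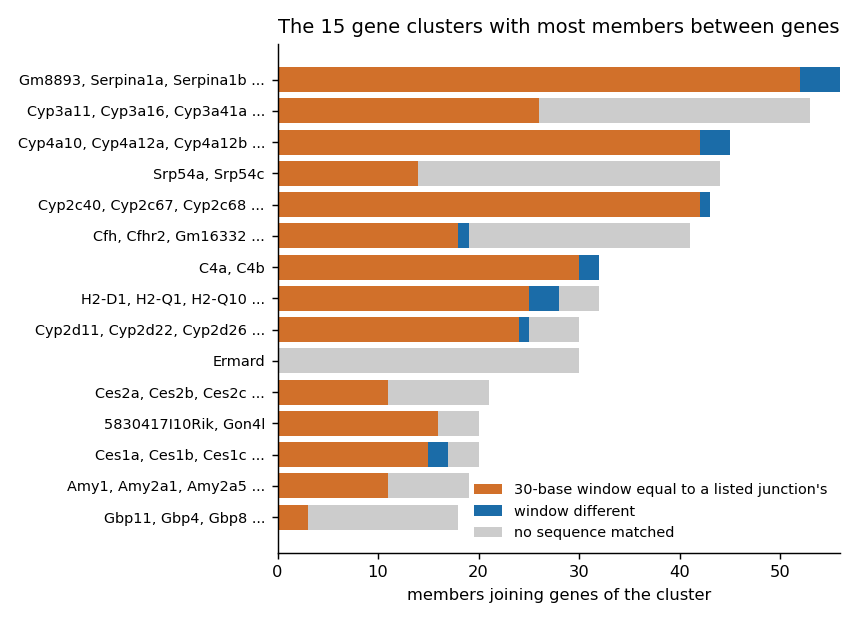
Members between genes in the 15 gene clusters that hold most of them (bar length, number of members), split by whether the 30-base window equals that of a listed junction. The Serpina1 cluster leads with 56 members, 52 of them with an identical window; grey marks members without matched sequence.

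The order of exons was kept in most pairings between genes. Exon n of one gene was joined to exon n + 1 of the other, in some transcript of each, by 933 of 1180 members (79.1%). Among members with an identical 30-base window this was 83.4%, and among those with a different one 71.2%. The joined genes were neighbours on their strand, with no other gene wholly between, for 558 (47.3%). By window, these were 45.1% and 55.9%. No background of other possible pairings was computed for these values, so they are a description only. GENCODE M21, a later annotation, lists 10 of the 906 members between genes with matched transcripts (1.10%). Among these are Tuba1a to Tuba1b at another intron with 4657 and 3327 reads and Myl12a to Myl12b, regulatory light chains of non-muscle myosin, with 3358 and 3023. Rnf139 to Ndufb9, a ubiquitin ligase and a complex I subunit, had 38 and 18 reads, and Itga1 to Pelo, an integrin and a ribosome rescue factor, had 10 and 14.

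In 59 members between genes the 30-base window differed from every listed one. Of these, 32 (54.2%) had 1 to 3 mismatches to the window of the most-read listed junction at one of their ends and 27 had 4 or more. Within 1 gene, 4 of 1172 (0.341%) were that close. A few that were far from both are shown, because their windows tell the pairing apart from the listed ones. Alb to Afp (chr5:90901711-90936823) joins albumin to the fetal albumin-like alpha-fetoprotein, its neighbour. Cldnd2 to Etfb (chr7:50696255-50707710) joins a claudin-domain gene to the beta subunit of the electron transfer flavoprotein. Each is followed by the most-read listed junction from its 5′ site and into its 3′ site.
Alb to Afp: gattaagaaacaaacGCTTCTCATTAACCT
Alb, listed: gattaagaaacaaacGGCTCTTGCTGAGCT
Afp, listed: gaccatgaaacaagaGCTTCTCATTAACCT
Cldnd2 to Etfb: gcaggggaccaggctATTCGGGTAAAGCCG
Cldnd2, listed: gcaggggaccaggctCTGCCTCCTTGGCAT
Etfb, listed: gacttcgctgtgaagATTCGGGTAAAGCCG
Alb to Afp differs from the listed windows at 7 and 5 bases and Cldnd2 to Etfb at 11 and 12. Alb to Afp had 243 reads in replicate 1 and 58 in replicate 2. That was 0.0605% and 0.0167% of the reads at its sites, where the listed Alb junction had 2260823 and 1901671 reads and the listed Afp junction 219861 and 191221. Cldnd2 to Etfb had 44 and 83 reads, above the 8 and 22 of the listed Cldnd2 junction, and shares of 30.4% and 29.8%. It held 60.3% and 58.5% of the reads at its 5′ site but 0.528% and 1.15% at its 3′ site, where the listed Etfb junction had 8280 and 7102 reads. Other joined neighbours with at least 7 differing bases at both ends included Pheta2 to Smdt1 (45 and 25 reads, shares of 23.2% and 20.8%) and Gm15889 to Herpud1 (38 and 25 reads, 11.7% and 7.65%). As means over the 5′ and 3′ sites, these shares do not give the part at either site alone. Herpud1 is a stress gene of the endoplasmic reticulum and Smdt1 a part of the mitochondrial calcium uniporter. These members were chosen after their values were seen, except Alb to Afp and Cldnd2 to Etfb.

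Members within 1 gene were mostly skips of a single exon. An annotated exon or group of overlapping exons of the host gene lay wholly inside the junction once in 912 of 1341 (68.0%), 2 times in 229 (17.1%) and 3 or more times in 117 (8.72%). In 83 (6.19%) no exon lay inside, so that the member paired alternative ends of neighbouring exons. Among listed junctions 92.0% skipped none and 6.09% skipped 1. The member that skipped most exons, 11, lay in Aass, an enzyme of lysine breakdown, with 34 and 12 reads. The next were 2 junctions assigned to Cfhr2, a complement factor H-related gene, which skipped 8 and had 2188 and 1991 reads in one case and 2593 and 1815 in the other. Cfhr2 lies in a cluster of near-identical copies with 41 members between genes, so its counts are uncertain.

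**Figure D3:**
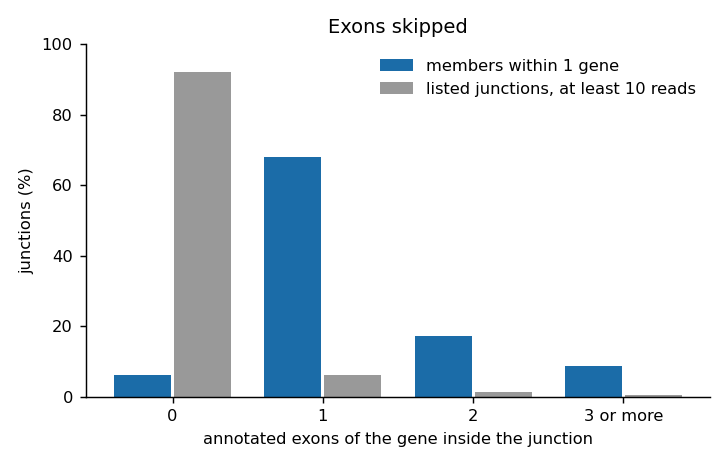
Percent of junctions (y axis) by the number of annotated exons or overlapping exon groups of the host gene inside them (x axis), for members within 1 gene and for listed junctions with at least 10 reads in each library. Skips of 1 exon are 68.0% of members and 6.09% of listed junctions.

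Most members within 1 gene were a small part of the splicing at their sites. The median share was 7.68% in replicate 1 and 8.13% in replicate 2, against 36.9% and 37.4% between genes and 99.8% and 99.9% for listed junctions. Shares under 1% were found for 165 members and from 1% to 5% for 357. A share over 50% in both libraries was found for 165 members (12.3%), and over 90% for 24. The median member had 3.58% of the reads of its gene's most-read listed junction. A high share did not always mean a main form of the gene: of the 165, 25 had under 5% of the reads of the gene's most-read listed junction and 81 over 20%. GENCODE M21 lists 294 of 1195 members with matched transcripts (24.6%). This was 6.79% at shares under 1%, 20.7% from 1% to 5%, 27.6% from 5% to 20%, 35.2% from 20% to 50% and 32.8% above. The models that the authors assembled from reads hold 192 of 1341 (14.3%), none at shares under 5% and 97 of 182 (53.3%) at 50% or more, compared with 83.2% of listed junctions.

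**Figure D4:**
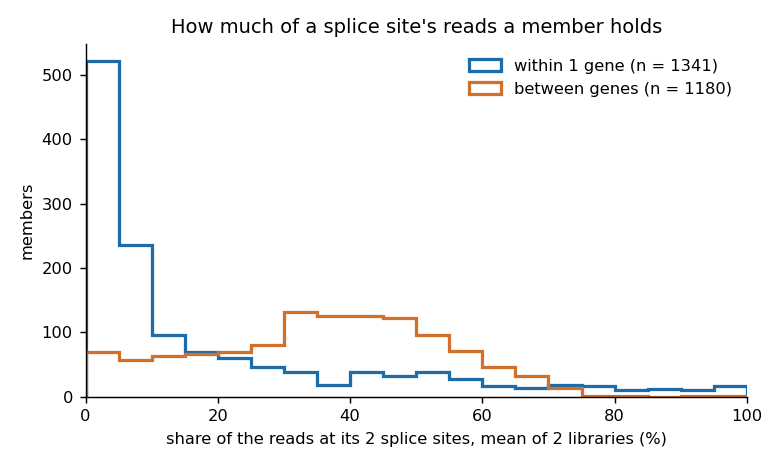
Number of members (y axis) by their share of the reads at their 2 splice sites, as a mean of the libraries in steps of 5 percentage points (x axis), for each class. Members within 1 gene pile up near 0, with a median of 8.01%, and those between genes spread around a median of 37.1%.

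The exons skipped at a high share differed in length from the others. A single exon of 1 annotated form was skipped by 704 members, and 285 of these exons (40.5%) had a length divisible by 3. For 546 the exon lay wholly in coding sequence of a matched transcript, with 222 (40.7%) divisible by 3, close to 3387 of 8378 internal coding exons of the same genes (40.4%). Coding exons skipped by listed junctions were divisible by 3 in 803 of 1129 cases (71.1%). Among members the value was 38.8% at shares under 5%, 37.2% from 5% to 20%, 38.8% from 20% to 50% and 75% (27 of 36) at 50% or more. The exons of that last group had a median of 58.5 bases, against 117 for the internal coding exons. Exons of at most 30 bases were 9 of those 36 (25%), 10 of the other 510 in all, and 1.34% of the internal coding exons. The limit of 30 bases was chosen after the values were seen.

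**Figure D5:**
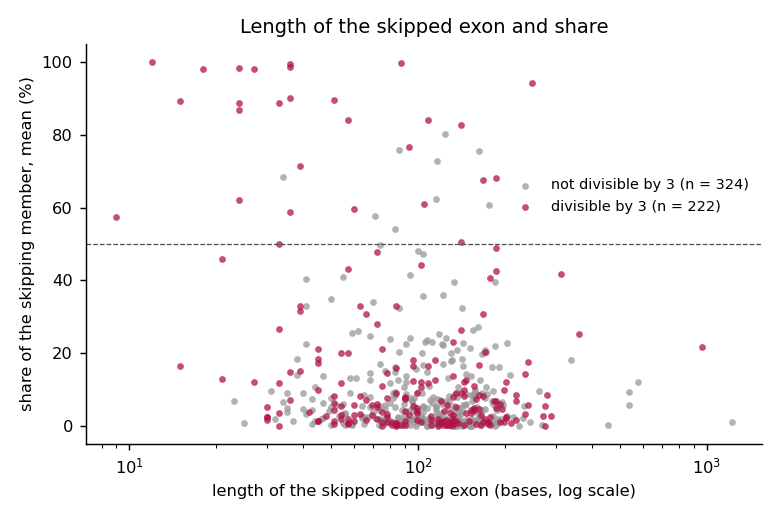
Length of the skipped coding exon (x axis, log scale) and mean share of the member that skips it (y axis, percent), 1 point for each of 546 members, coloured by whether the length is divisible by 3. Above the dashed line at 50%, 27 of 36 exons are divisible by 3.

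All 9 of these short exons are divisible by 3, and 8 are shown by their sequence. Shares count junction reads only, and how fully reads that include exons this short were aligned was not tested. Lower case is the exon as in the M21 transcript, and mm9 positions follow in the next sentences.
Nudt5: gggatggag
Erc1: tctcacctcaag
Atl1: ggaagcacaaatgag
Ptprk: atttggctgtacagggat
Clasp2: ctcttaggagacatacggactaag
Rapgef2: gaagaagaagtggcggagtctggg
Sag: ctttctaggagagctcacatccag
Dock4: aattccactatttggtccctaccctag
The Ptprk exon (chr10:28289980-28289997), in a receptor tyrosine phosphatase of cell contacts, was skipped by 89 and 78 reads, at shares of 100% and 96.4%. Reads that included it, over the listed junctions on its sides, were 0 and 1 before it and 0 and 5 after it. For Clasp2 (chr9:113787868-113787891), a protein of growing microtubule ends, the counts were 57 and 43 reads and the shares 99.1% and 97.8%. Erc1 (chr6:119684099-119684110), a scaffold of the cell cortex, had 10 and 25 reads with shares of 100% in both libraries. Dock4 (chr12:41521184-41521210), an activator of Rac, had 13 and 15 reads and shares of 96.4% and 100%. Atl1 (chr12:71061535-71061549), which shapes the endoplasmic reticulum, had 13 and 15 reads at 89.8% and 88.5%, and the Sag member (chr1:89733885-89733908), in the arrestin of the retina, 10 and 13 reads at 90.9% and 86.7%. Both forms were read for Rapgef2 (chr3:78886546-78886569), an activator of Rap, at 31 and 33 reads and 63.3% and 61.1%. Nudt5 (chr2:5787279-5787287) was at 19 and 28 reads and 51.6% and 63.0%. The Nudt5 member had only 2.46% of the reads of its gene's most-read listed junction, where that of Rapgef2 had 25.9% and that of Ptprk 47.3%. Of these 8 skips M21 lists the one in Erc1.

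The pairing of the flanking exons can be seen for Ptprk, where capitals again mark the downstream exon. The first line is the member and the others are the listed junctions into and out of the short exon.
Ptprk member: gccaactacatcgacGGCTACCAGAGACCA
Ptprk, into the exon: gccaactacatcgacATTTGGCTGTACAGG
Ptprk, out of the exon: tggctgtacagggatGGCTACCAGAGACCA

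The members with the highest share among those with at least 100 reads were close to the only form read at their sites. Ppfia1, the adaptor liprin-alpha-1, skipped a 30-base exon with 234 and 293 reads at 100% and 99.7%. Vav2, a guanine nucleotide exchange factor, skipped an 87-base exon with 213 and 222 reads at 99.5% and 100%. Prdm10, a zinc-finger protein, skipped a 36-base exon with 226 and 225 reads at 99.8% and 99.1%. Tacc2, a centrosomal coiled-coil protein, also skipped one of 36 bases, with 61 and 56 reads at 99.2% and 98.3%. Clasp2 and Ptprk came next. These 6 members had from 41.0% to 112% of the reads of their genes' most-read listed junctions. Hnrnpu and Serpinh1 completed the 8. Hnrnpu, a nuclear RNA-binding protein, had 157 and 165 reads at 95.8% and 96.3%, but that was 4.79% of the gene's most-read listed junction. Serpinh1, the collagen chaperone of the endoplasmic reticulum, had 1036 and 646 reads at 94.7% and 94.0% and skipped a 44-base exon outside matched coding sequence.

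Further members within 1 gene are named here, chosen after their values were seen. Slco1b2, a hepatocyte uptake transporter, had a member that skipped an 84-base exon with 784 and 270 reads at 73.6% and 71.8%. Itih3, a heavy chain of the plasma inter-alpha-inhibitor, had 577 and 635 reads at 91.4% and 84.8%, which was 1.41% of its most-read listed junction. Cfi, the protease complement factor I, skipped a 21-base coding exon with 649 and 580 reads at 12.7% and 13.2%. Isca2, an iron-sulfur cluster assembly factor, skipped a 116-base exon with 326 and 282 reads at 72.3% and 73.1%. Ptbp2, a splicing repressor of neurons, skipped a 34-base exon with 90 and 101 reads at 61.9% and 74.9%; this skip is known from non-neuronal cells. Csnk1g3, a casein kinase, holds the ninth of the short coding exons, of 24 bases, skipped with 155 and 160 reads at 84.1% and 89.4%. Proc, the anticoagulant protein C, had 1450 and 939 reads at 43.3% and 41.0% with no exon inside.

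Gene lists show where the members within 1 gene lie. Of 12983 genes with a listed junction of at least 10 reads in each library, 1099 (8.46%) had a member within 1 gene and 451 (3.47%) a member between genes. The first value was higher in genes read more deeply. It was 1.98% of genes whose most-read listed junction had from 10 to 100 reads, 8.62% from 100 to 1000, 18.0% from 1000 to 10000 and 35.4% above. Secreted plasma proteins, the most abundant list with a median of 40388 reads at the most-read junction, had members in 25 of 46 genes (54.3%). Red cell and haem genes had them in 17 of 44 (38.6%) at a median of 2105 reads, splicing regulators in 14 of 63 (22.2%) at 1232 and hepatocyte metabolism in 12 of 56 (21.4%) at 2905. Proliferation genes had them in 3 of 38 (7.89%) at 950, and cytoskeleton and matrix genes in 5 of 34 (14.7%) at 623. The lists differ in depth as these medians show. The part of depth in the counts, and in the median shares that follow, was not tested.

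The plasma protein members were a trace of their genes' splicing, with a median share of 0.107% over 39 members. Apoa2, an apolipoprotein of high-density lipoprotein, had 1368 and 1127 reads at 0.976% and 1.10%. Ahsg, the mineral-binding fetuin-A, skipped an 85-base coding exon with 937 and 1239 reads at 0.151% and 0.223%, a skip that M21 lists. Ttr, the carrier of thyroid hormone, had 906 and 641 reads at 0.252% and 0.317%, and Kng1, kininogen, 758 and 681 at 1.59% and 1.83%. The range over the list was wide, from 0.000821% to the 88.1% of Itih3.

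Red cell and haem genes had a median share of 1.76% over 26 members within 1 gene. Xpo7, a nuclear exporter abundant in erythroid cells, skipped a 173-base exon with 86 and 111 reads at 7.07% and 10.5%. Tspo2, an erythroid cholesterol-binding protein, had 2 members with no exon inside, at 64 and 103 reads (49.2% and 51.4%) and at 101 and 61 reads (42.9% and 40.6%). Tmod1, which caps actin filaments in the red cell skeleton, skipped 3 exons with 75 and 73 reads at 22.8% and 25.9%.

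For splicing regulators the median share was 14% over 20 members. Their genes were read less deeply, with a median of 1232 reads at the most-read junction against 40388 for plasma proteins. The read minimum sets a lowest possible share that falls as depth rises, so the median shares of the lists cannot be compared directly. Clk4, a kinase of splicing factors, skipped 2 exons with 159 and 165 reads at 56.5% and 56.0%. Mbnl1, a muscleblind RNA-binding protein, also skipped 2, with 77 and 64 reads at 16.9% in each library. The member of Qk, the RNA-binding protein quaking, had 66 and 56 reads at 59.9% and 58.6%. The median over 17 members of hepatocyte metabolism was 0.656%. There Gnmt, glycine N-methyltransferase, skipped a 143-base exon with 369 and 335 reads at 5.47% and 6.23%. Fbp1, of gluconeogenesis, skipped one of 120 bases with 171 and 112 reads at 1.21% and 1.03%. In the same list Cyp3a11, a P450 of drug oxidation, was joined to Cyp3a44 with 1612 and 930 reads, to Cyp3a41a with 758 and 406, to Cyp3a41b with 754 and 399 and to Cyp3a16 with 639 and 449.

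Of the proliferation genes 3 had a member. Kif23, a kinesin of cell division, skipped a 312-base exon with 66 and 44 reads at 49.6% and 34.0%. Mki67, the proliferation antigen Ki-67, skipped a 960-base exon with 67 and 36 reads at 23.5% and 19.7%, and Tyms, thymidylate synthase, 3 exons with 28 and 15 reads at 3.79% and 2.47%. In the cytoskeleton and matrix list Tpm1, a tropomyosin, had 48 and 36 reads at 8.76% and 8.21%. Fn1, fibronectin, had 23 and 22 at 0.125% and 0.0877%, and Ktn1, kinectin, 19 and 20 at 19.9% and 16.8%.

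Most members lay within 2-fold between the libraries. Counts were scaled by the reads over listed junctions, and a log2 ratio below 0 means fewer reads in replicate 2. Beyond 2-fold were 79 of 1341 members within 1 gene (5.89%) and 109 of 1180 between genes (9.24%), against a background of 2.56% of listed junctions. Within 1 gene 52 were higher and 27 lower in replicate 2, and between genes 29 were higher and 80 lower, where the listed background was 1.65% higher and 0.917% lower. At a mean of 10 to 20 reads the value was 4.63% within 1 gene, 6.36% between genes and 6.12% for listed junctions. There the minimum of 10 reads in each library limits how far the counts can differ, so the step to the next class is not an effect of depth alone. In the same order the value was 8.83%, 13.8% and 7.33% at 20 to 50 reads and 2.83%, 8.90% and 1.35% at 50 to 200. At a mean over 200 reads it was 2.13% of only 47 members within 1 gene, 6.63% of 347 between genes and 0.472% for listed junctions. With 1 library on each side there is no replicate check of these differences. Some members between genes repeat the same counts, so their percents can count 1 difference more than once.

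Members between genes differed in both directions, by family. Some members of a family repeat the same counts, so the members counted below are not separate observations. Of 53 members in the Cyp3a cluster 21 were beyond 2-fold lower in replicate 2; over the cluster the median log2 ratio was -0.76. Lower too were 8 of 45 in Cyp4a, 5 of 6 in the carboxylesterases Ces3a and Ces3b, 5 of 43 in Cyp2c and 5 of 13 in Serpina3. Beyond 2-fold higher in replicate 2 were 5 of 19 members in the amylase cluster (median 0.62) and 4 of 56 in Serpina1 (median 0.27), with none beyond 2-fold lower. In the zinc-finger cluster of Zfp970, 4 of 5 were beyond 2-fold higher and 1 lower (median 1.38). The extremes named next are among members with at least 100 reads over both libraries. Cyp3a41a to Cyp3a41b had 450 and 108 reads, a log2 ratio of -1.81, and the listed junctions at both of its ends had 452 and 108. Cyp3a11 was joined to Cyp3a41b and to Cyp3a41a with 104 and 24 reads each, both at -1.85. The lowest of these was Serpina3h to Serpina3k with 86 and 19 reads at -1.90. Alb to Afp was at -1.81, whereas the listed Alb and Afp junctions at its ends held similar counts in the libraries. At the other end stood 2610005L07Rik to 6820431F20Rik with 34 and 69 reads at 1.26. Gm15922, Pira2 and Gm14548, of the paired immunoglobulin-like receptors of myeloid cells, were each joined to Pirb with the same 194 and 384 reads at 1.23, counts that the listed Pirb junction has as well. Cldnd2 to Etfb was at 1.16. Of the 109 members between genes beyond 2-fold, the listed junctions at the same sites differed beyond 2-fold the same way for 50, and for 2 of 79 within 1 gene. Of all members between genes, 21.6% had counts within 5% of a listed junction at one of their ends. The 2 classes therefore cannot be compared by these values. By any amount, the listed junctions at the same sites moved the same way for 98 between genes and 62 within 1 gene. The same count over all members was not computed, so these values are a description only. The higher neutrophil and lower pancreas markers of replicate 2 stand beside these values, and their part was not tested. The amylase members beyond 2-fold went the other way from the pancreas markers.

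The mm10 transcript tables gave a second view of some members. For 74 members within 1 gene that M21 lists, transcripts with the junction are in those tables, and the authors' percent of the gene's TPM held by them was summed. Its median was 8.36% in replicate 1 and 7.49% in replicate 2, and it passed 50% in both libraries for 8. Across these 74 members Spearman's rank correlation with the share was 0.436 and 0.488, a description over junctions that share libraries and sometimes genes. Faap20, a Fanconi anaemia core complex partner, skipped a 21-base exon with 108 and 137 reads at shares of 82.4% and 84.8%, and its transcripts with the junction held 62.6% and 61.3%. For Hnrnpu the same values were 13.0% and 13.5% beside shares of 95.8% and 96.3%.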

How the data were processed

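The authors' deposited junction list covers both replicates on mm9. It gives a whole read count per library in each record's name, their summed count in a field of its own, and a reproducibility score from the authors; all members had a score of at most 0.1. Per the file headers, exon ends come from ENSEMBL 65. The deposited mm10 tables give an expected count and TPM for each gene and, for each transcript, the percent of its gene's TPM; total expected counts were 163766625 and 139889938. No source used here names the aligner or counter of the junction list.

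Junctions were joined to exon ends by strand and position (Python 3.11.15, pandas 2.3.3, numpy 2.4.6, networkx 3.6.1, scipy 1.17.1). Of 82357 ENSEMBL 65 transcripts with over 1 exon, 68306 were matched to GENCODE M21 by identifier and equal intron and internal exon lengths; no coordinate was converted. Symbols matched 1530 of the 1597 members' genes. Log2 ratios used a pseudocount of 0.5. Exons inside a junction were grouped when they overlapped. The 2-fold and exon-counting steps were checked on simulated data.

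The members and gene lists were chosen with earlier results of these data known. Named members are the 10 with most reads, the 8 within 1 gene with the highest share and the 5 highest and 5 lowest log2 ratios (at least 100 reads over both libraries), the 6 between genes with most reads, up to 4 of each gene list by mean count, the 3 that skip most exons, and 2 on each side of the read minimum; 1 of these is not reported here. The other named members were chosen after their values were seen, among them those of the gene lists within 1 gene where the rule took only members between genes. All values rest on 2 libraries; counting error is largest near the minimum of 10 reads.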

Additional observations from a re-analysis of the deposited data

How the results depend on the processing

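No paired analysis was possible because there is 1 group. The member count of 2521 became 4127 at a minimum of 5 reads and 1525 at 20, 1341 with both ends in 1 gene, and from 2924 to 3455 when 1 library alone had to pass. Without members whose 30-base window equals that of a listed junction, 1657 remained, 79.9% of them within 1 gene. Members without matched sequence could not be judged and were kept there, and this alternative was chosen after the data were seen. Members beyond 2-fold fell from 7.46% to 4.88% at 50 reads in each library, where listed junctions were at 0.555%. The median log2 ratio of all members, 0.02, was -0.08 with scaling by the median ratio and -0.23 with none; scaling by the median moved listed junctions by -0.09. The percent within 1 gene (40.8% at 20 reads and 62.1% at 5), the single-exon skips (68.0% to 69.5%), the exons divisible by 3 (37.0% to 40.5%) and the median share within 1 gene (7.04% to 8.31%) stayed within 1.5 times their values under all other alternatives run. With listed junctions as the only competitors the median share between genes was 47.3%. Leaving out 1 library gave median shares from 7.68% to 8.13% within 1 gene and from 36.9% to 37.4% between genes.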
